A study of Mus musculus with 43 samples.

Results

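The Cd300 family of myeloid receptors was followed through 43 RNA sequencing libraries of sorted mouse bone marrow. Its members were the 8 genes Cd300a, Cd300c, Cd300c2, Cd300e, Cd300lb, Cd300ld, Cd300lf and Cd300lg, found by their symbols among the 56941 gene identifiers counted. No cut on a measured value was applied to them, but the family was chosen with earlier results of these data known. In the study, 5000000 JAK2V617F whole marrow cells carrying CD45.2 were given to wild-type CD45.1 mice of the same age and sex that received no conditioning, so the recipients kept their own marrow. The groups taken about 7 months later were host CD45.1 cells (n = 7), donor CD45.2 cells of the same 7 animals (n = 7), and CD45.1 cells of wild-type mice that were given no marrow (n = 8). Stroma-enriched cells came from the same 7 transplanted animals (BMT stroma) and the same 8 controls (control stroma), and were gated as negative for both CD45 types and for lineage markers of B cells (B220), T cells (CD8, CD4), natural killer cells (NK1.1), granulocytes and monocytes (Ly-6G/Ly-6C, CD11b) and red cells (Ter119). CD45.1 CD11b-positive cells were taken from other animals, all male, 3 of them 52 weeks after transplantation (BMT CD11b) and 3 untransplanted (control CD11b). The number of cells given is listed for the transplanted animals taken at 7 months and not for those taken at 52 weeks. Since no mouse was given unmutated marrow, what the mutation does and what transplantation does cannot be told apart. In the comparisons with donor cells, the mutation and the CD45 type cannot be told apart either. The donor library of animal N204 is a donor sample by its title and recipient-derived by one characteristic, and the title was followed.

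CD300 proteins are surface receptors with a single immunoglobulin-like domain, and many of them bind lipids exposed on dying or stressed cells. Inhibitory members carry tyrosine motifs in a long cytoplasmic tail that recruit phosphatases, while activating members have short tails and signal through adaptor proteins such as DAP12 (Tyrobp) or the Fc receptor gamma chain (Fcer1g). In the marrow they are known chiefly from monocytes, macrophages, granulocytes and mast cells, and the exception is Cd300lg, also called nepmucin, which is known from the endothelium of blood vessels. Of the mouse members, Cd300a and Cd300lf are inhibitory, and Cd300lb, Cd300ld and Cd300c2 are activating. Human CD300E and CD300C are activating receptors, CD300E being a marker of monocytes.

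All 8 genes lie on chromosome 11. In a mouse annotation of build GRCm38, 7 of them form a cluster, and Cd300lg lies apart with 146 protein-coding genes between it and Cd300a. Within the cluster Cd300a is on the forward strand and the other members are on the reverse strand. Promoter sequences of RefSeq (GRCm38.p6, 250 bases before to 50 after the start) were found for 7 members. Those of Cd300e, the member that differed most in this series, and of Cd300lb, Cd300ld and Cd300lf, which varied together between libraries, are shown here, each on the strand of its gene. Capitals mark GGAAGT, a core of the sites of ETS factors such as the myeloid regulator PU.1, or its reverse complement ACTTCC.
Cd300e, chr11:115061990-115062289 (-): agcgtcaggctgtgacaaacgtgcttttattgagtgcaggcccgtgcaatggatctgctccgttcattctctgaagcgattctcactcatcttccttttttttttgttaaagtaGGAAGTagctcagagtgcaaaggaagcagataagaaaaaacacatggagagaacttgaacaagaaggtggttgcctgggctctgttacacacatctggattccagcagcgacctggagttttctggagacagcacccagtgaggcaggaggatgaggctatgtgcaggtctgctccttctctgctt
Cd300lb, chr11:114934322-114934621 (-): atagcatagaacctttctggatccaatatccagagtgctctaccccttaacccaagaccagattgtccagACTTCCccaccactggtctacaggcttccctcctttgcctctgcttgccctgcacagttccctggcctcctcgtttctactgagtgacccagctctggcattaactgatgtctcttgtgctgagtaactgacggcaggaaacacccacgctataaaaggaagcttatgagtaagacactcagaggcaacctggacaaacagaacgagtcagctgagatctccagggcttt
Cd300ld, chr11:114989837-114990136 (-): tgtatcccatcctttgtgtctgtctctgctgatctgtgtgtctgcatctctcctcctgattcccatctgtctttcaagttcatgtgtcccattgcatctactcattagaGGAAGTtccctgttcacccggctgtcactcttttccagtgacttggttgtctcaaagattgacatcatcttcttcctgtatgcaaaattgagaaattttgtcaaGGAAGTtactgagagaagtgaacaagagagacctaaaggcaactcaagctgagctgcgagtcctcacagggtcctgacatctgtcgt
Cd300lf, chr11:115133943-115134242 (-): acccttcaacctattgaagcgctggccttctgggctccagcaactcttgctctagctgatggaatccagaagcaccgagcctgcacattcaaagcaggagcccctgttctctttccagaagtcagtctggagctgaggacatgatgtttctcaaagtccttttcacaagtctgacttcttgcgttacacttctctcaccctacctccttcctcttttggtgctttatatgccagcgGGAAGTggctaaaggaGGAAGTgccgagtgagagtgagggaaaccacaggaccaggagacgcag

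Searched on both strands, GGAAGT was present in the promoters of 5 of the 7 members (Cd300lb, Cd300ld, Cd300c2, Cd300e and Cd300lf) and in 23.8% of 32851 mouse promoters of the same length. The longer GAGGAAGT, which contains it, was present in Cd300ld and Cd300lf and in 3.20% of all promoters. A match to AGATAA, which regulators of the red cell and mast cell lineages are known to bind, was present in Cd300c2 and Cd300e and in 11.2% of all promoters. The Cd300e window had 1 GGAAGT, which began 136 bases before the start, and 1 AGATAA 109 bases before it. In the Cd300lf window the GGAAGT matches lay around the start itself, at 14 bases before it and at base 3 after it. A match of letters is a description of the window and does not show that a factor binds there.

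Library totals were 15713119 to 19683698 counts in the 22 CD45-sorted libraries, 41210646 to 143228988 in the 15 stroma libraries and 32478800 to 44853593 in the 6 CD11b libraries. All 8 members had at least 7 counts in every library, with the lowest counts in Cd300c, although 1 BMT stroma library (N279) and 1 control CD11b library (N168) listed Cd300c at 0 TPM. Levels are given as the deposited TPM, transcripts per 1000000, which are scaled by gene length. Per length, Cd300lf had the highest mean TPM of the family in all 7 groups, followed by Cd300lb and then Cd300ld. In host cells the mean TPM was 126.4 ± 35.5 for Cd300lf, 62.0 ± 16.0 for Cd300lb, 39.2 ± 14.9 for Cd300ld, 30.5 ± 2.10 for Cd300a and 25.0 ± 3.19 for Cd300c2 (SD, n = 7). Cd300lg, Cd300e and Cd300c followed at 12.1 ± 1.35, 8.31 ± 3.09 and 3.25 ± 1.08 TPM. The ranges of neighbours in this order overlapped except between Cd300c2 and Cd300lg. Places changed among the less abundant members. Cd300e was the lowest of the 8 in donor cells, control cells and control stroma, ahead of Cd300c in host cells and control CD11b cells, and ahead of Cd300lg and Cd300c in BMT stroma and BMT CD11b cells. Cd300lg ranked next after Cd300ld in control stroma, at a mean of 5.70 against 14.3 TPM.

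Summed over the 8 genes, the family stood at 306.8 ± 65.01 TPM in host cells (SD, n = 7), 283.2 ± 65.2 in donor cells (n = 7) and 328.0 ± 47.2 in control cells (n = 8). The sum was 385.5 ± 43.2 TPM in BMT CD11b cells and 484.2 ± 26.2 in control CD11b cells (n = 3 each), the only comparison with controls in which its ranges did not overlap. It was 94.6 ± 66.8 TPM in BMT stroma (n = 7) and 75.7 ± 32.9 in control stroma (n = 8). The family was thus not absent from the stroma gate, which was meant to leave out CD45 and CD11b. Neutrophil markers were read there too, the sum of 12 genes being 6644 to 62220 TPM in BMT stroma and 10230 to 44850 in control stroma. The stroma and CD11b libraries were prepared or sequenced apart from the CD45-sorted ones, so levels between these gates were not tested.

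**Figure D1:**
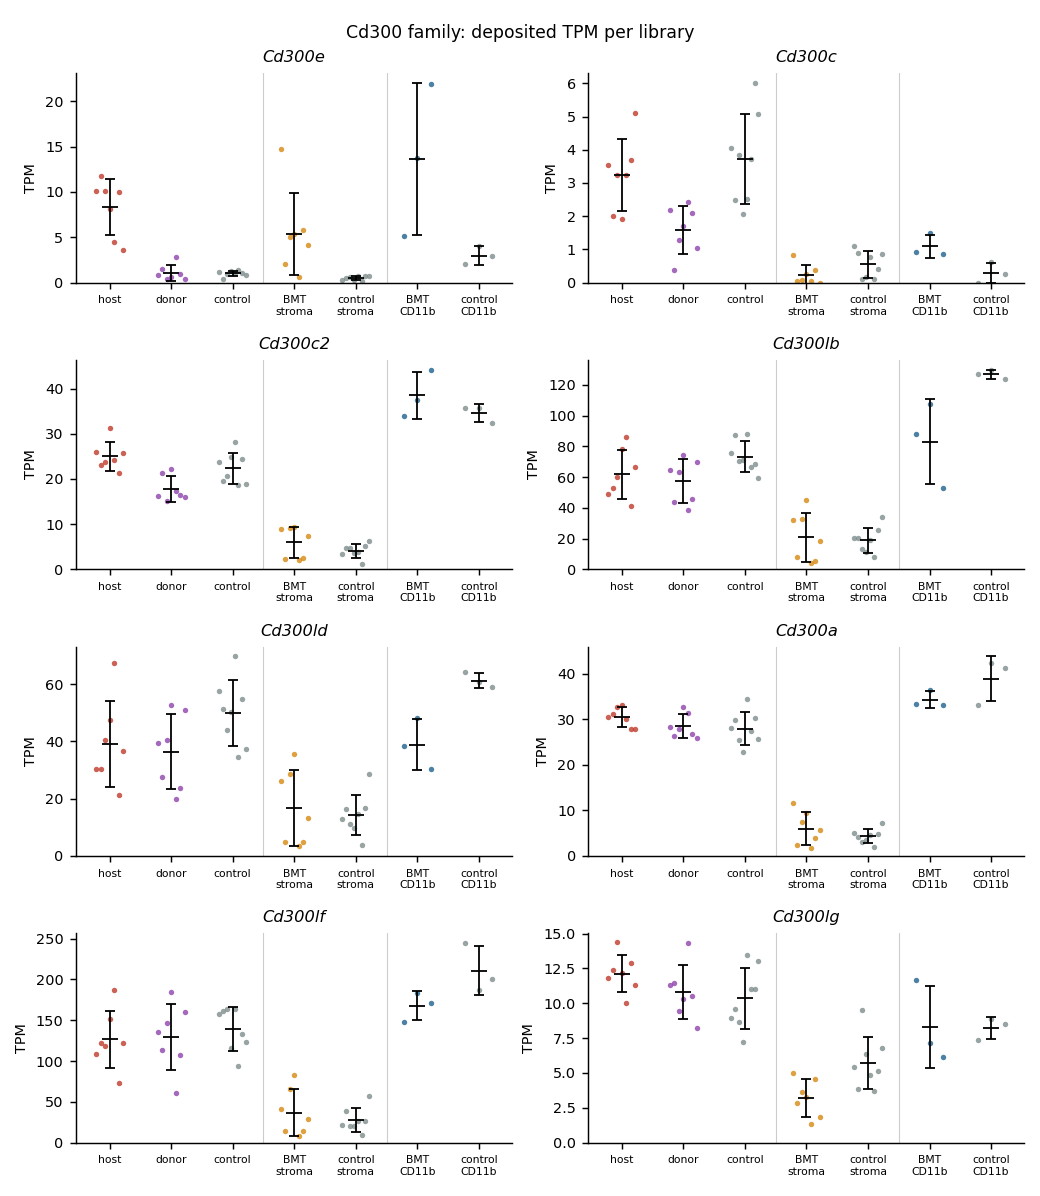
Deposited TPM of each Cd300 gene (vertical axes, each from 0) in every library of the 7 groups (horizontal axes); points are libraries, bars the mean and 1 SD (n = 7 or 8, and 3 for CD11b). The mean of Cd300e is higher in host cells, BMT stroma and BMT CD11b cells than in donor cells and every control group. Single libraries overlap, and levels between gates were not tested. The means of the other 7 panels do not have this pattern.

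Each group was compared with its controls by edgeR's quasi-likelihood test on the deposited counts, and a gene passed at a Benjamini-Hochberg adjusted p below 0.05 over all genes tested. Between host and control cells 1 of the 8 members passed, Cd300e, which was higher, against 16.4% of all genes tested in either direction and 8.61% as higher. Between donor and control cells 2 passed, Cd300c and Cd300c2, both lower, where 45.7% of all genes passed and 23.0% were lower. In donor set against host cells, paired by animal of origin but fitted without a block, 3 passed, Cd300e, Cd300c and Cd300c2, all lower, against 14.1% of all genes and 9.94% as lower. Between BMT and control stroma 1 passed, again Cd300e and again higher, where 1.49% of all genes did and 0.466% were higher. Between BMT and control CD11b cells 0 members passed and so did 0% of all genes. At an unadjusted p below 0.05, 4 members and 16.4% of all genes stood in that comparison, and by DESeq2 3 members and 2.16% of all genes passed. The host and donor comparisons share the 8 control libraries, and the donor-to-host comparison reuses the host and donor libraries, so these counts are not independent of each other. In bulk libraries fewer cells of a type cannot be told apart from less RNA per cell.

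**Figure D2:**
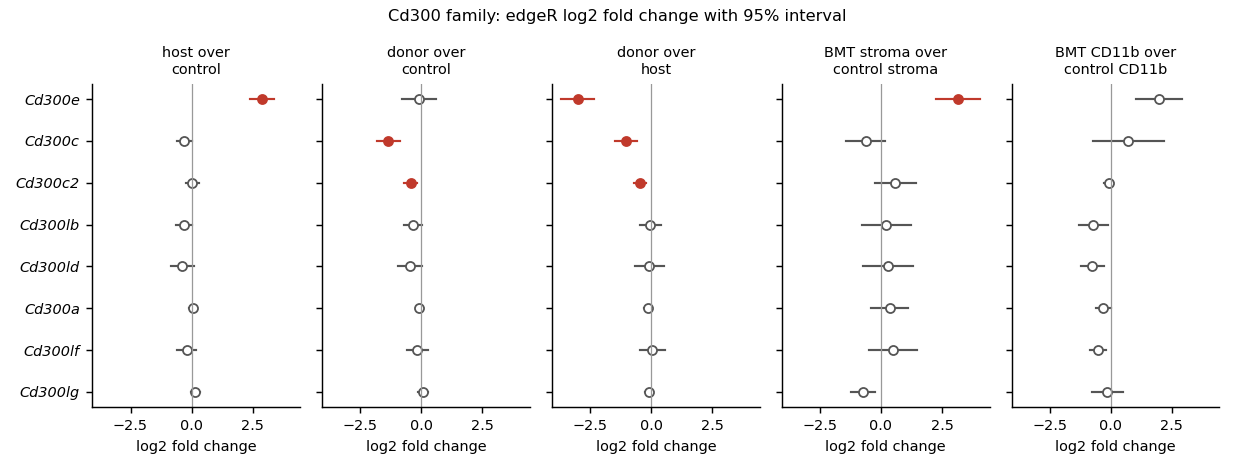
The edgeR log2 fold change (horizontal axes, first group over second) of each member with its 95% interval in the 5 comparisons; filled red points passed at an adjusted p below 0.05, open points did not. Cd300e lies far to the right in the host and BMT stroma panels, far to the left in donor over host, and at 1.98 without passing in BMT CD11b; the other members lie between -1.35 and 0.73.

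Cd300e was the member with the largest difference. Its level was 3.63, 10.0 and 11.7 TPM (lowest, median and highest) in the 7 host libraries, against 0.43, 1.055 and 1.40 TPM in the 8 control libraries. In counts these were 101 to 358 per host library, against 13 to 38 per control library. Every host library lay above every control library. The log2 fold change was 2.88 (SE 0.23, 95% interval 2.39 to 3.37), a 7.38-fold difference (edgeR adjusted p = 1.17e-06). By size it ranked 11 among the 14073 genes tested, from the highest down. Its share of the family's summed TPM was 2.92 ± 1.43% in host cells (SD, n = 7) and 0.323 ± 0.126% in control cells (n = 8).

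Donor cells had a Cd300e level near that of control cells. The lowest, median and highest were 0.36, 0.88 and 2.84 TPM in the 7 donor libraries, which overlapped the control range on both sides. Against control cells the log2 fold change was -0.11 (SE 0.33, 95% interval -0.81 to 0.59) and did not pass (edgeR adjusted p = 0.814). Against host cells of the same animals it was -3.01 (SE 0.31, 95% interval -3.67 to -2.34), so Cd300e was 8.03-fold lower in donor cells (edgeR adjusted p = 3.61e-06), and lower in 7 of 7 animals. The highest donor value, 2.84 TPM, came from N005, whose host library stood at 10.0 TPM. Without that donor library the log2 fold change was -3.31. The 2 kinds of cell came from one marrow in each animal and were separated by CD45 type.

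Stroma-enriched cells of the same animals also differed. Cd300e was at 0.625, 5.055 and 14.7 TPM (lowest, median and highest) in the 7 BMT stroma libraries, against 0.205, 0.56 and 0.775 TPM in the 8 control stroma libraries. Of the BMT stroma libraries 6 lay above every control library, and the exception was N032 at 0.625 TPM. The log2 fold change was 3.16 (SE 0.43, 95% interval 2.25 to 4.06; edgeR adjusted p = 0.00124). Without N005, the highest library, it was 2.83 (edgeR adjusted p = 0.00264), and without N032 it was 3.31. It passed neither in males alone (3.27, edgeR adjusted p = 0.067) nor in females alone (2.95, edgeR adjusted p = 0.202). The order of the animals was not the same in the 2 gates: N032 had 10.1 TPM in host cells and the lowest value in stroma, and N005 had 10.0 TPM in host cells and the highest in stroma.

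**Figure D3:**
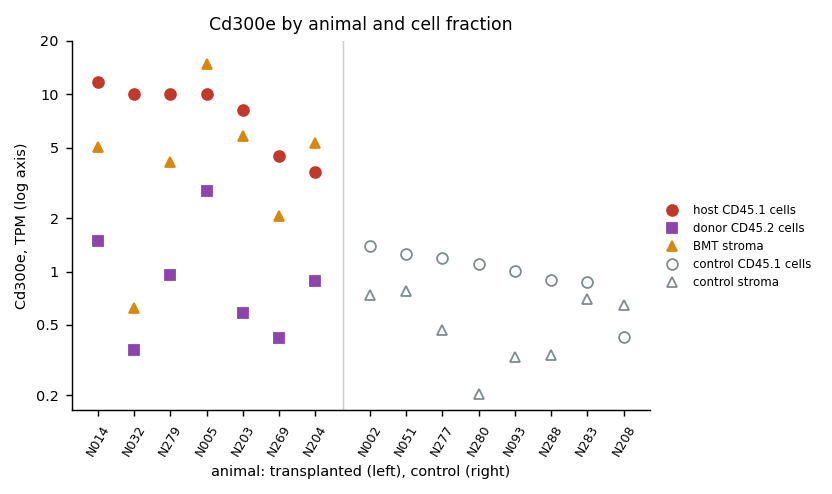
Cd300e in TPM (vertical log axis) for each animal (horizontal axis), the 7 transplanted animals ordered by their host value on the left and the 8 controls on the right; circles are CD45.1 cells, squares donor CD45.2 cells and triangles stroma. In all 7 transplanted animals the donor value lies below the host value, and 6 of 7 BMT stroma values lie above the highest control stroma value of 0.775 TPM.

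In CD11b-positive cells taken 52 weeks after transplantation, Cd300e was at 5.17, 13.7 and 21.9 TPM in the 3 BMT libraries, against 2.00, 4.03 and 2.89 TPM in the 3 control libraries. The ranges did not overlap, and the lowest BMT value, from N187, lay closest to the controls. The fitted log2 difference was 1.98 (SE 0.41, 95% interval 1.04 to 2.92), with an edgeR unadjusted p of 0.00108 and an adjusted p of 0.27, so it did not pass. DESeq2 called it at 1.96 (adjusted p = 3.34e-05), and edgeR called it without a filter on low counts (adjusted p = 0.0172) or without N187 (2.33, adjusted p = 0.0182). The CD11b difference minus the host difference was -0.94 (SE 0.47, 95% interval -1.91 to 0.03; edgeR adjusted p = 0.41), and 0 members passed that test, where 0.109% of all genes did. At an unadjusted p below 0.05, 2 members (Cd300a and Cd300c) and 12.6% of all genes stood there, and DESeq2 passed 0 members and 1.69% of all genes. These groups differ in gate, in time after transplantation and in sequencing.

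Within the host comparison Cd300e was tested for a dependence on sex and on the final blood chimerism, the donor share for which the labels give no unit. The host difference was 3.24 in males alone (edgeR adjusted p = 3.6e-05) and 2.47 in females alone (edgeR adjusted p = 0.0274). The interaction, male minus female, was 0.75 (SE 0.43, 95% interval -0.17 to 1.66; edgeR adjusted p = 1.00). Per doubling of chimerism, over a range of 0.63 to 5.99, Cd300e changed by -0.17 in host cells (95% interval -0.48 to 0.14; edgeR adjusted p = 0.944) and by 0.27 in donor cells (95% interval -0.37 to 0.91; edgeR adjusted p = 0.999). In these 3 tests 0 of 8 members passed and 0% of all genes did. By edgeR at an unadjusted p below 0.05 there were 0 members in each, beside 3.17% of all genes for sex, 4.04% for chimerism in host cells and 2.14% in donor cells. DESeq2 passed 0 members in each, and 0.0201% of all genes for sex, 0.0205% for chimerism in host cells and 0% in donor cells.

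Cd300c and Cd300c2, known as activating receptors from the human and the mouse protein, were lower in donor cells. For Cd300c the lowest, median and highest values were 0.37, 1.71 and 2.42 TPM in the 7 donor libraries, 1.92, 3.24 and 5.11 TPM in the 7 host libraries and 2.06, 3.78 and 6.00 TPM in the 8 control libraries. The donor range overlapped both others at its upper end. The edgeR log2 fold change was -1.35 (SE 0.22) against control cells (edgeR adjusted p = 8.79e-05) and -1.05 (SE 0.21) against host cells (edgeR adjusted p = 0.00253), where it was lower in 7 of 7 animals. These are small counts, from 7 to 29 per donor library, and on TPM plus 0.1 the difference from host cells was -1.09 and did not pass (limma adjusted p = 0.0502). Between host and control cells Cd300c differed by -0.30 and did not pass (95% interval -0.62 to 0.02; edgeR adjusted p = 0.181).

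Cd300c2, also called MAIR-II, stood at 15.0, 16.5 and 22.3 TPM in the 7 donor libraries, 21.4, 24.1 and 31.4 TPM in the 7 host libraries and 18.6, 22.3 and 28.1 TPM in the 8 control libraries. Donor values lay mostly below the other groups and overlapped both. On the log2 scale the difference was -0.44 (SE 0.13) against control cells (edgeR adjusted p = 0.00858) and -0.46 (SE 0.12) against host cells (edgeR adjusted p = 0.0162), lower in 7 of 7 animals. With a block for the day of euthanasia, in the 5 pairs that share one, the difference from control cells was -0.21 and did not pass (edgeR adjusted p = 0.175). In males alone it passed against neither control cells (-0.44, edgeR adjusted p = 0.15) nor host cells (-0.32, edgeR adjusted p = 0.388). Host and control cells differed by 0.03 in Cd300c2 (95% interval -0.23 to 0.28). In CD11b cells Cd300c2 was at 33.9, 37.4 and 44.2 TPM in BMT libraries, against 35.6, 35.8 and 32.3 TPM in control libraries.

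The activating receptors Cd300lb, known to pair with DAP12, and Cd300ld, known to pair with the Fc receptor gamma chain, passed in none of the 5 comparisons by edgeR. Cd300lb was at 41.2, 60.0 and 85.9 TPM in the 7 host libraries, 38.8, 63.6 and 74.5 TPM in the 7 donor libraries and 59.4, 70.7 and 88.3 TPM in the 8 control libraries. Cd300ld was at 21.3, 36.7 and 67.3 TPM in host, 19.7, 39.4 and 52.9 TPM in donor and 34.5, 50.8 and 69.8 TPM in control libraries. The 3 ranges of each gene overlapped. Against control cells the log2 fold changes in host cells were -0.30 for Cd300lb (95% interval -0.63 to 0.04) and -0.38 for Cd300ld (95% interval -0.86 to 0.11). Without the host library of N269, where both genes had their highest host value, both passed as lower (-0.45, edgeR adjusted p = 0.0349, and -0.62, edgeR adjusted p = 0.0329). In donor cells they were -0.35 and -0.47, and both passed as lower without N203 or without N269 and with no filter on low counts. With that same day block Cd300lb passed in donor cells at -0.20 (edgeR adjusted p = 0.0476).

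In CD11b cells both genes stood lower after transplantation, without passing by edgeR. Cd300lb stood at 88.2, 107.9 and 53.2 TPM in BMT libraries, against 127.1, 130.02 and 124.1 TPM in control libraries. Cd300ld stood at 38.3, 48.2 and 30.2 TPM in BMT libraries, against 64.2, 60.6 and 59.1 TPM in control libraries. Every BMT library lay below every control library in both genes. The log2 fold change was -0.71 for Cd300lb (edgeR adjusted p = 0.273) and -0.76 for Cd300ld (edgeR adjusted p = 0.27), and DESeq2 called Cd300ld (-0.77, adjusted p = 0.0171) but not Cd300lb. In stroma both ranged widely, Cd300lb from 3.815 to 44.9 TPM in BMT libraries and from 7.895 to 33.7 TPM in control libraries, and neither passed. Neutrophil markers stood lower with these genes in CD11b cells, their summed TPM being 230600 to 335000 in BMT libraries and 350900 to 362900 in control libraries. In the CD45-sorted cells the sums overlapped, at 80000 to 193900 TPM in host, 75050 to 178500 in donor and 117000 to 167700 in control libraries. Without the host library of N269, 8 of 12 neutrophil markers passed between host and control cells. With it 0 did, where 16.4% of all genes passed, and the share of all genes without it is not given here. The part of neutrophils in the values of Cd300lb and Cd300ld was not tested.

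The inhibitory receptor Cd300lf, the most abundant member, passed in none of the 5 comparisons by edgeR. It was at 73.2, 122.5 and 187.2 TPM in the 7 host, 60.3, 135.3 and 184.5 TPM in the 7 donor and 93.5, 145.6 and 164.1 TPM in the 8 control libraries, 3 overlapping ranges. In log2 terms the difference was -0.20 in host cells (95% interval -0.59 to 0.19) and -0.16 in donor cells (95% interval -0.59 to 0.27), both against control cells. In CD11b cells it was at 148.4, 183.1 and 171.5 TPM in BMT libraries, against 244.9, 187.6 and 200.2 TPM in control libraries, with no overlap. There the log2 fold change of -0.52 did not pass by edgeR (adjusted p = 0.27) and passed by DESeq2 (-0.53, adjusted p = 0.0276). In this annotation Cd300lf overlaps Rab37 on the opposite strand and Cd300lb overlaps the pseudogene Gm11699, and whether the counting used strand is not given in the sources used here. Rab37 itself differed by -0.18 in host cells and by -0.25 in BMT CD11b cells and did not pass.

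Cd300a, the other inhibitory receptor, varied little in the CD45-sorted cells. It was at 27.8, 30.5 and 33.2 TPM in the 7 host, 25.9, 27.8 and 32.8 TPM in the 7 donor and 22.7, 27.7 and 34.5 TPM in the 8 control libraries. The log2 fold changes against control cells were 0.06 in host cells (95% interval -0.10 to 0.22) and -0.08 in donor cells (95% interval -0.23 to 0.07). Between donor and host cells it was -0.13 and did not pass (95% interval -0.27 to 0.01; edgeR adjusted p = 0.227). With the animal as a block it passed at the same size (edgeR adjusted p = 0.0262), in a fit where 33.7% of all genes passed. In CD11b cells Cd300a was at 33.4, 36.4 and 33.2 TPM in BMT libraries, against 33.2, 42.3 and 41.3 TPM in control libraries, which overlapped.

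Cd300lg, the endothelial member, was nevertheless read in every gate. It was at 9.99, 12.1 and 14.4 TPM in the 7 host, 8.19, 10.5 and 14.3 TPM in the 7 donor and 7.19, 10.3 and 13.5 TPM in the 8 control libraries. The 3 ranges overlapped. The CD11b gate had 11.6, 7.14 and 6.13 TPM in BMT libraries, against 7.37, 8.88 and 8.48 TPM in control libraries. The 12 endothelial markers were read mostly in stroma, with a summed TPM of 112.3 to 213.5 in BMT stroma and 142.5 to 270.2 in control stroma. Their sum was 10.5 to 23.3 in BMT CD11b cells and 8.33 to 11.5 in control CD11b cells, so Cd300lg was read where these markers were low. In stroma Cd300lg was at 1.315, 3.24 and 4.965 TPM in the 7 BMT libraries, against 3.68, 5.285 and 9.515 TPM in the 8 control libraries. The BMT values lay lower and overlapped the controls. The log2 fold change was -0.73 (95% interval -1.23 to -0.23) and did not pass (edgeR adjusted p = 0.217). Of the 12 endothelial markers 0 passed in stroma, where 1.49% of all genes did. Their summed range also lay lower there and overlapped, and their part in the Cd300lg values was not tested.

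The signalling partners of the family were followed in the same comparisons. Of 13 adaptor, kinase and phosphatase genes, 0 passed in host cells (median log2 -0.04, and 0.01 over all genes), where 16.4% of all genes passed. In stroma 0 of the 13 passed, where 1.49% of all genes did. DAP12 (Tyrobp) was at -0.20 in host cells and the Fc receptor gamma chain (Fcer1g) at -0.04. In donor cells against control cells 1 was higher, Ptpn11 (SHP-2 phosphatase, 0.19), and 4 were lower, beside 45.7% of all genes that passed and 23.0% that were lower. The lower ones were the kinase Syk (-0.49, edgeR adjusted p = 7.27e-05), the lipid phosphatase Inpp5d (SHIP1, -0.44), the adaptor Hcst (DAP10, -0.49) and the phosphoinositide 3-kinase subunit Pik3r1 (-0.22). Against host cells Inpp5d was the 1 that passed, at -0.26 (edgeR adjusted p = 0.00398), where 14.1% of all genes passed. In CD11b cells 0 of the 13 passed, and 0% of all genes did.

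Other immunoglobulin-like receptors of myeloid cells gave a comparison for the family. Of 20 such genes, 2 passed as higher in host cells, Sirpb1a, a signal regulatory protein (0.98, edgeR adjusted p = 5.00e-04), and Trem2, a lipid-sensing macrophage receptor (0.67, edgeR adjusted p = 6.65e-04), where 8.61% of all genes were higher. Sirpb1a shared the course of Cd300e: it averaged 14.1 ± 4.23 TPM in host cells (SD, n = 7), 6.48 ± 3.26 in donor cells (n = 7) and 5.86 ± 0.78 in control cells (n = 8). It was also lower in donor than host cells (-0.99, edgeR adjusted p = 0.00154). In stroma Sirpb1a was the 1 of 20 that passed, at 1.79 (edgeR adjusted p = 0.00701), where 1.49% of all genes did. In donor against control cells Siglecf (0.44) and Trem2 (0.43) were higher and Treml4 (-0.64) lower, of 19 tested, beside 45.7% of all genes that passed. In CD11b cells 0 of 20 passed, and 0% of all genes did. Of 6 genes tested among the 10 next to the cluster, 1 passed in host cells, where 16.4% of all genes passed in either direction. It was Kif19a, a kinesin gene, at -0.63 (edgeR adjusted p = 0.0375), opposite in sign to Cd300e in that comparison. In donor against host cells Kif19a was at -1.92 (edgeR adjusted p = 2.50e-04), the same sign as Cd300e. In donor against control cells it was at -2.55 (edgeR adjusted p = 2.00e-06), where Cd300e was at -0.11 and did not pass.

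Some markers of monocytes and macrophages differed in the comparisons where Cd300e did. The marker lists were chosen with earlier results of these data known, so their counts here and below are a description. In host cells 6 of 9 macrophage markers tested were higher and 0 lower (median log2 0.82), and 4 of 8 classical monocyte markers were higher and 0 lower (median 0.36), beside 8.61% of all genes that were higher. Among them were the complement genes C1qa, C1qb and C1qc at 4.08, 3.68 and 4.16, and the proteoglycan gene Vcan at 2.55. The 10 markers of nonclassical monocytes, the cells that patrol vessels, were mixed, 3 higher (Fabp4 2.34, Itgax 0.53, Spn 0.22) and 1 lower (Nr4a1 -0.38), with a median of -0.07. The summed TPM of the 12 macrophage markers had a median of 203.2 in host, 143.9 in donor and 107.8 in control libraries, and ran from 147.5 to 228.6 in host and from 92.7 to 120.1 in control libraries. None of the 12 was at 0 throughout a CD45-sorted group. Of 12 neutrophil markers 0 passed, and 8 of 8 B cell markers were lower (median -1.41), where 16.4% of all genes passed in either direction. The part of these cells in the Cd300e result was not tested.

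Donor cells had high Vcan without high Cd300e. Vcan was at 2.64 in donor against control cells and at 0.09 in donor against host cells, and 3 of 8 classical monocyte markers were higher in donor than control cells. In the same comparison 6 of 10 nonclassical markers were lower and 1 higher, where 45.7% of all genes passed and 23.0% were lower, and the C1q genes were at 1.15 to 1.34. Donor cells against host cells had 5 of 9 macrophage markers lower and 0 higher, beside 9.94% of all genes that were lower, with C1qa at -2.70 beside Cd300e at -3.01. In stroma, where 0.466% of all genes were higher, 3 of 12 macrophage markers were, C1qa 3.07, C1qb 3.36 and C1qc 2.56, while 0 classical and 0 nonclassical monocyte markers passed, Vcan being at 0.27. The summed macrophage markers overlapped there, at 90.1 to 328.6 TPM in BMT stroma and 135.7 to 342.9 TPM in control stroma. Alas2, which encodes an enzyme of heme synthesis in red cell precursors, was higher there too (3.50, edgeR adjusted p = 7.91e-04). In CD11b cells 0 markers of any list and 0% of all genes passed by edgeR, and the C1q genes were at 2.90 to 2.99. The summed macrophage markers were 212.5 to 331.2 TPM in BMT CD11b libraries and 171.0 to 184.0 TPM in control CD11b libraries. The part of any of these in the Cd300e results was not tested.

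**Figure D4:**
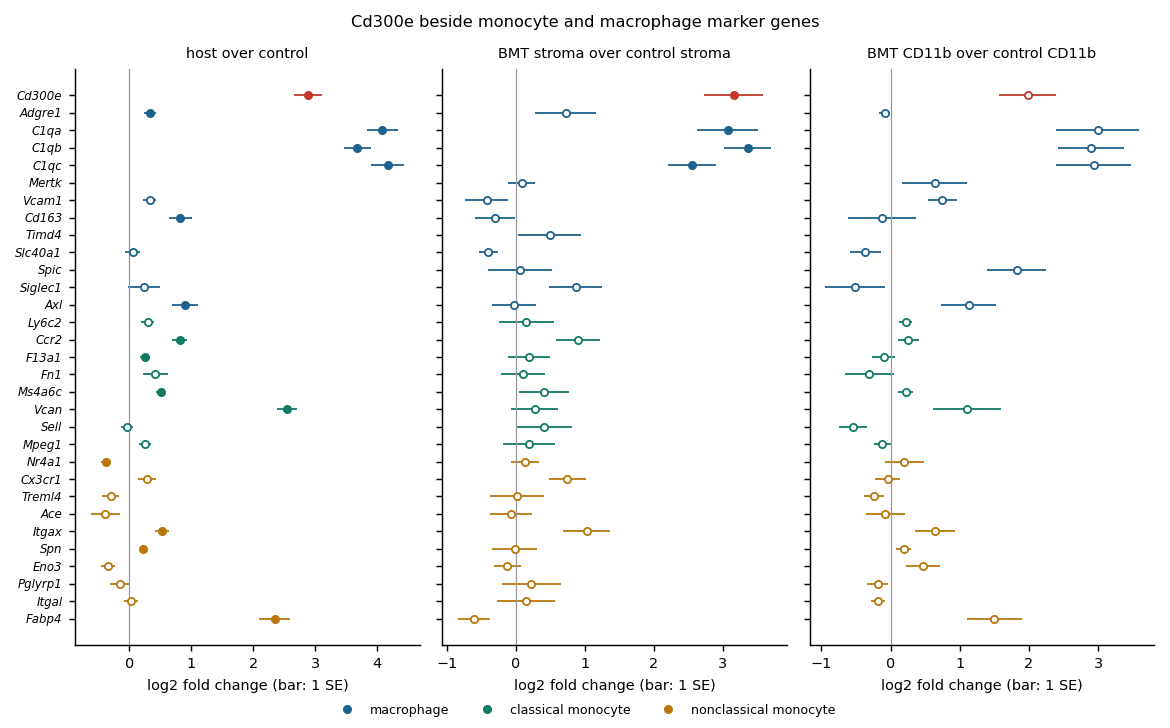
The edgeR log2 fold change with its SE (horizontal axes) of Cd300e (top row) and of the macrophage, classical monocyte and nonclassical monocyte markers in host cells, BMT stroma and BMT CD11b cells, each over its controls; filled points passed at an adjusted p below 0.05. C1qa, C1qb and C1qc lie near or beyond Cd300e in all 3 panels, while Vcan is at 2.55 in host cells and 0.27 in stroma.

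Over the 22 CD45-sorted libraries, from 15 animals, the genes whose log2 CPM (counts per 1000000) was most like that of each member were found among 11465 genes by Pearson's r. They are a description, since host and donor libraries share animals and all share the sort. Host, donor and control libraries were pooled without removing group means, so r includes the differences between groups. Cd300e was most like Cadm1, an adhesion gene (r 0.96), Fcrl5, an Fc receptor-like gene (0.95) and the integrin gene Itgad (0.95). Between host and control cells their log2 fold changes were 2.79, 2.97 and 2.82, beside 2.88 for Cd300e. Libraries that the likeness did not use gave a mixed picture. The stroma libraries among them came from the same 15 animals, and only the CD11b libraries came from other mice. In stroma Fcrl5 (3.37, edgeR adjusted p = 0.00294) and Itgad (1.77, edgeR adjusted p = 0.0135) were higher like Cd300e, while Cadm1 was at -0.57 and did not pass. In CD11b cells Fcrl5 was at 4.39, Itgad at 4.68 and Cadm1 at 4.11, and they did not pass by edgeR (adjusted p = 0.27, 0.27 and 0.0886).

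The members fell into different sets by the same measure, which again includes the differences between groups. Cd300lb, Cd300ld and Cd300lf varied together, with r of 0.97 between Cd300lb and Cd300ld, 0.91 between Cd300lb and Cd300lf and 0.90 between Cd300ld and Cd300lf (n = 22 libraries). Cd300lb and Cd300ld shared Mmp8, the neutrophil collagenase gene, and Nudt4 among their 3 nearest genes, and those of Cd300lf were Dhrs9, Mxd1 and Grina. Cd300e had an r of -0.33 to -0.38 with these 3 members. Cd300a was nearest to Tlr5, the flagellin receptor gene (0.91), Cd300c to Mn1 (0.94), Cd300c2 to Lst1 (0.83) and Cd300lg to Tmem109 (0.81).

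Genes named after Cd300ld but outside the 8 members were read at few counts. Cd300ld2, Cd300ld4 and Cd300ld5 had at most 24, 4 and 12 counts in a library, and did not reach the tests. Cd300ld3 had 3 to 22 counts per CD45-sorted library but a mean of 7.89 TPM over those 22 libraries, and passed in none of the 4 comparisons of groups that tested it. Its ratio of TPM to CPM was 10.4 there, against 0.284 to 1.43 for the 8 members, and the reason was not tested. Reads shared by copies of nearly the same sequence may have been split or dropped, so the values of Cd300ld and its copies are uncertain. Whether this happened was not tested.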

How the data were processed

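The members and gene lists were chosen with earlier results of these data known. Whole-number counts per gene were deposited by the authors, and per the submitters' processing notes STAR 2.7.3a, GRCm39, Subread 1.6.2 and featureCounts were used. TPM values were deposited by the authors too, with RSEM 1.3.3 named in those notes for the 6 CD11b samples. The tool behind the other TPM values and the strand setting are not given in the sources used here. Per the labels' protocols the CD45-sorted libraries were directional poly-A libraries, and the stroma libraries were low-input ones run more than once.

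Counts were fitted with edgeR 4.0.16 in R 4.3.3 (filterByExpr, TMM scaling, quasi-likelihood test, sex as a covariate except in the all-male CD11b comparison), with p-values adjusted by Benjamini-Hochberg over all genes tested. The SE was the absolute log2 fold change over the square root of F. Alternatives were DESeq2 1.42.0, RLE scaling, other filters, limma 3.58.1 on log2 of TPM plus 1 or 0.1, a block, a single sex, and leaving out libraries 1 at a time. The scripts were tested on simulated data. p-values measure the spread between mice, except in donor against host cells. There the donor and host libraries of one animal were fitted as if independent, unless the animal was a block.

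Same-animal donor and host libraries deviated together (r 0.174 to 0.600, 7 pairs). The labels give the day of euthanasia, which 5 pairs shared in each other 7-month comparison (r 0.238 to 0.292 for host, 0.162 to 0.283 for donor and 0.0523 to 0.526 for stroma).

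All 8 members were named in each comparison, then up to 4 genes per list with the smallest p among those that passed, and the 3 genes most like each member. Tyrobp, Fcer1g and Rab37 were named for their relation to members, and genes of a list named in one comparison were followed into others after their values were seen.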

Additional observations from a re-analysis of the deposited data

Results flagged for a closer look

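The Cd300e level of the BMT stroma library of N005 stood apart from the other BMT stroma libraries. It was 14.705 TPM, and the next highest was 5.77 TPM, a gap of 0.635 of the group's whole range. It was the 1 such library found in 40 combinations of a gene and a group, and chance flags about 1 in 20 of them. Without it Cd300e still passed in stroma, at a log2 fold change of 2.83 (edgeR adjusted p = 0.00264).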

How the results depend on the processing

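Leaving out single libraries gave 1 to 3 members passed between host and control cells, 2 to 4 between donor and control cells, 3 between donor and host cells, 1 in stroma and 0 to 1 in CD11b cells. The 3 came without the host library of N269, the 4 without the donor library of N203 or N269, and the 1 in CD11b cells without N187. Without a low-count filter 4 members passed between donor and control cells and 1 in CD11b cells, and by DESeq2 3 passed in CD11b cells. In males alone 1 passed between donor and control cells, 1 between donor and host cells and 0 in stroma, where 0 passed in females alone too. These settings hold fewer libraries, and for the others the cause was not tested.

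With a replicate block (the day, or the animal for donor against host) 1 member passed in host cells, 2 in donor against control cells, 4 in donor against host cells, 1 in stroma and 0 in CD11b cells, and the block changed no member's call beyond those given for Cd300c2, Cd300lb and Cd300a. No direction that passed reversed under any setting run. Between host and control cells Cd300e kept its direction and passed in all 24 alternatives, at 2.11 to 3.24. In donor against control cells limma on TPM also passed Cd300lb (adjusted p = 0.0446 and 0.0453), and Cd300c in donor against host cells did not pass in either sex alone (edgeR adjusted p = 0.0631 in males and 0.192 in females).

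Over all genes, the 2312 passed between host and control cells became 1140 and 1112 by limma on TPM plus 1 and plus 0.1, 479 in males, 121 in females and 1527 without N014. The 6360 between donor and control cells became 3027 in males. The 1928 between donor and host cells became 1171 and 1166 by limma, 4605 with the animal block, 1136 in males and 450 in females. The 391 in stroma became 750 by DESeq2, 250 with the day block, 125 in males, 0 in females and 593 without N032. The 0 in CD11b cells became 291 by DESeq2, 59 without a filter, 1 by limma and up to 28 without 1 library. The 17 for the CD11b minus host difference became 264 by DESeq2, 34 by RLE, 95 without a filter, 26 with the stricter one, 0 and 5 by limma and 0 to 312 without 1 library. The 0 of the sex and chimerism tests became at most 19. Depth limits Cd300c most, with as few as 7 counts in a library.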
